A study of Mus musculus with 8 samples.

Results

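MHC class II presentation genes encode the surface dimers that show peptide to CD4+ T cells and the proteins that load them. The members were chosen by symbol: H2-Aa, H2-Ab1, H2-Eb1, H2-DMa, H2-DMb1, Cd74 and Ciita, 7 of the 56980 genes in the deposited table. They were examined in mouse bone-marrow-derived macrophages, 4 libraries from constitutive Grn knockout (GrnKO) cells and 4 from wild-type (WT) cells. Both genotypes were C57/Bl6, and all 8 cultures had been given the vehicle DMSO. Each replicate was a pool of marrow from several mice that had been differentiated in M-CSF (50 ng/mL), frozen, thawed and cultured for 3 days before RNA was taken. The series set the genotypes side by side to see how loss of progranulin, the secreted and lysosomal glycoprotein encoded by Grn, alters the macrophage transcriptome. The labels do not give the ages of the mice or say which part of Grn was deleted.

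Class II molecules are built from an alpha and a beta chain that assemble in the endoplasmic reticulum around the invariant chain, the product of Cd74. The invariant chain directs the dimer to late endosomes and lysosomes, where proteases cut it down and H2-DM exchanges the last fragment for antigen peptide. Transcription of these genes is driven by Ciita, a coactivator without DNA binding of its own that docks on the RFX, CREB and NF-Y proteins bound to the X and Y boxes of class II promoters. Resting macrophages grown in M-CSF are known for low class II, which interferon gamma induces through Irf1 and Ciita.

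RefSeq promoter windows (GRCm38.p6, 250 bases before to 50 after the annotated start) matched 4 of the 7 members, and H2-Ab1, Cd74 and Ciita had none. The 120 bases before the start are shown for a chain of each surface dimer and for H2-DMb1, because they hold the elements on which Ciita acts; capitals mark the X box core AACNGATG and the Y box core GATTGG, or its reverse complement. The windows are H2-Aa at chr17:34287824-34287943 on the minus strand, H2-Eb1 at chr17:34305747-34305866 on the plus strand and H2-DMb1 at chr17:34153071-34153190 on the plus strand. These coordinates belong to the RefSeq table; the deposited counts were made on GRCm39 and carry no coordinates.
H2-Aa: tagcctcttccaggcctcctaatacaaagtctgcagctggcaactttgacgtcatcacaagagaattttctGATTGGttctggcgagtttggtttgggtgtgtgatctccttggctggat
H2-Eb1: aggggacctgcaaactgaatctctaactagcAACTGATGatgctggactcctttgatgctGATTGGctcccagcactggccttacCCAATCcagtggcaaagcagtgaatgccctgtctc
H2-DMb1: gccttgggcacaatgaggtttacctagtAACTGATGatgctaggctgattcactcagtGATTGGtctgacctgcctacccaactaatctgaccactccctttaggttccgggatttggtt

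The H2-Eb1 and H2-DMb1 windows held both cores on the plus strand in the same arrangement. In H2-Eb1 the X core began 89 bases and the Y core 60 bases before the start, 29 bases apart. In H2-DMb1 they began 92 and 62 bases before it, 30 bases apart. H2-Eb1 had another Y core on the opposite strand, 35 bases before the start. H2-Aa had a Y core 49 bases before the start and no X core in these letters. H2-DMa has 2 annotated starts; the window of one held neither core, and that of the other had a Y core 199 bases upstream. Searched on both strands, GATTGG was present in 5292 of 32851 RefSeq windows of the same length (16.1%), AACNGATG in 762 (2.32%) and both in 110 (0.335%). The spacing recurred in the windows of a pair of relatives that are not members: X and Y cores were 30 bases apart in H2-DMb2 and 29 in H2-Eb2. A match describes letters in the window and is not evidence of binding in these cells.

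**Figure D1:**
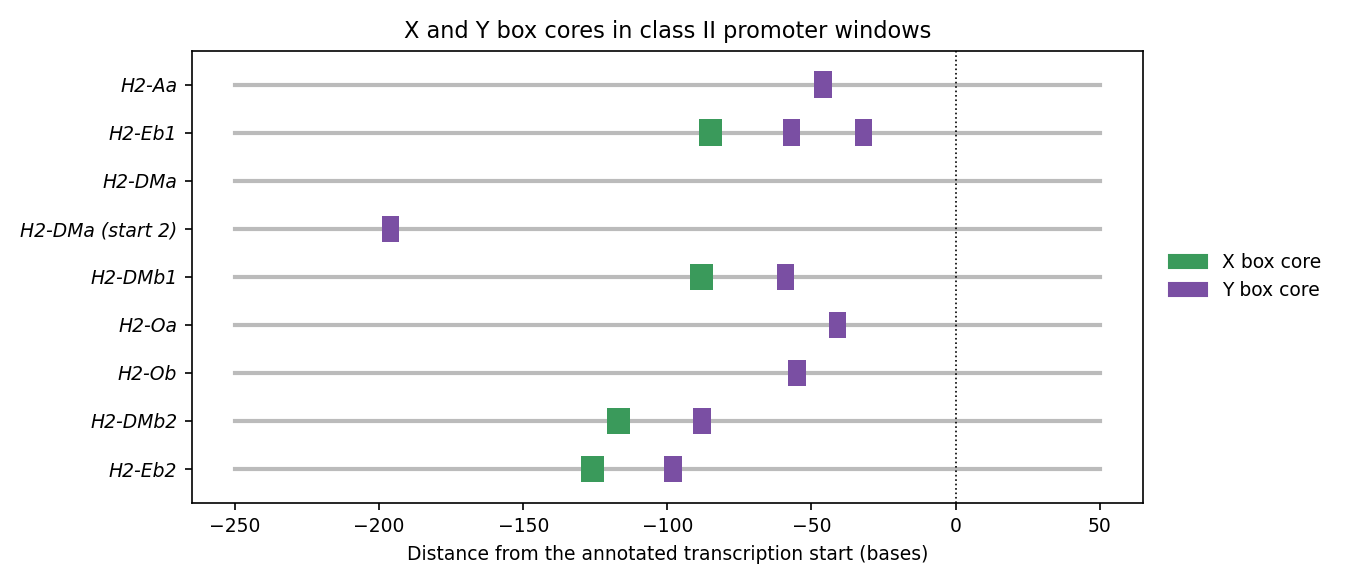
Positions of the X box core (green) and Y box core (purple) in the 300-base RefSeq windows of class II genes, as bases from the annotated transcription start (dotted line); grey lines are the windows. In H2-Eb1, H2-DMb1, H2-DMb2 and H2-Eb2 the X core starts 29 or 30 bases upstream of a Y core, while H2-Aa, H2-Oa and H2-Ob show a Y core alone.

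The libraries carried 5828178 to 7944863 counts in GrnKO and 7413222 to 8768772 in WT cultures. Grn, the targeted gene, had 14.4, 12.96, 13.6 and 12.99 CPM (counts scaled to the TMM-adjusted library total) in GrnKO libraries 1 to 4, against 1436, 1498, 1700 and 2027 CPM in WT libraries 1 to 4, so all 8 matched their labels. By edgeR's quasi-likelihood test its log2 fold change was -6.95 ± 0.15 SE, with an adjusted p of 4.1e-10. All 9 macrophage markers were expressed, and none was called between genotypes by edgeR, with 6 at an unadjusted p under 0.05. They leaned lower in GrnKO libraries: 8 of the 9 had a negative log2 fold change, with a median of -0.38. In 4 every GrnKO library was below every WT library, and in 1 above, beside 5.10% and 6.88% of all tested genes. Adgre1 averaged 517 CPM in GrnKO and 728 CPM in WT libraries (edgeR adjusted p = 0.05002). Lyz2 averaged 4856 CPM in GrnKO and 4976 CPM in WT libraries, and Csf1r 535 and 763 CPM. The summed macrophage markers spanned 7036 to 8743 CPM in GrnKO and 5978 to 10840 CPM in WT libraries, with WT 1 lowest. Monocyte markers summed to 43.5 to 67.9 CPM in GrnKO and 245 to 521 CPM in WT libraries, highest in WT 1. In WT libraries most of that sum was Cx3cr1, at 444 CPM in WT 1. The other tested monocyte markers, Ccr2, F13a1 and Nr4a1, were each lowest in WT 1 among WT libraries. Neutrophil markers summed to 22.9 to 40.5 CPM in GrnKO and 59.1 to 164.5 CPM in WT libraries. Of 4 tested monocyte markers 3 fell, as did 3 of 5 tested neutrophil markers, beside 1.46% of all tested genes called lower. Il7r of the T cell list rose (467 CPM in GrnKO and 173 CPM in WT libraries), as did Kit of the mast cell list (6.89 and 1.13 CPM), and no tested plasmacytoid dendritic or stromal marker was called.

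Class II transcripts were scarce in both genotypes, and none of the members was called between them. The 5 H2 members lie on chromosome 17, Ciita on chromosome 16 and Cd74 on chromosome 18. Together the 7 members had 513, 403, 441 and 455 counts in GrnKO libraries 1 to 4, and 448, 554, 403 and 437 counts in WT libraries 1 to 4. That is 0.00734, 0.00691, 0.00653 and 0.00573% of all counts in the GrnKO libraries and 0.00511, 0.00691, 0.00518 and 0.00589% in the WT libraries. GrnKO 1 was highest and WT 1 lowest, and the groups overlapped. Much of this share was H2-DMb1, with 979 counts in GrnKO and 932 in WT libraries, of 3654 for all 7 members. Of the 6 members with enough counts to be tested, 0 were called at an adjusted p under 0.05 by edgeR's quasi-likelihood test, against a background of 4.25% of the 12186 genes tested, 2.79% called higher and 1.46% called lower in GrnKO libraries. None of the 6 reached an unadjusted p under 0.05 either, and the counts were also 0 with DESeq2 and limma-voom. In 5 of the 6 the log2 fold change was positive, beside 5583 of all 12186 tested genes. The median over the 6 was 0.34, beside -0.03 over all tested genes. The groups overlapped for every member, where 12.0% of tested genes had groups that did not (6.88% higher and 5.10% lower in GrnKO libraries).

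Bulk libraries do not distinguish fewer cells of a type from less RNA per cell, so a few class II-rich cells and a low level in every macrophage cannot be told apart. Defining markers of dendritic cells and B cells were near 0, while dendritic markers that macrophages share were not. Flt3 averaged 0.175 CPM in GrnKO and 0.146 CPM in WT libraries, Zbtb46 0.352 and 0.844 CPM, and Clec9a 0 and 0.128 CPM. The dendritic list summed to 1518 to 1764 CPM in GrnKO and 1323 to 1736 CPM in WT libraries, most of it Sirpa. Clec10a, a lectin of dendritic cells and some macrophages, averaged 46.7 ± 9.54 CPM in GrnKO and 87.5 ± 42.7 CPM in WT libraries (edgeR adjusted p = 0.167). Itgax, the integrin CD11c, averaged 12.1 ± 1.98 and 7.15 ± 1.62 CPM (0.0634), with all GrnKO libraries above all WT libraries. In the dendritic list 7 of its 15 genes could be tested and none was called by edgeR, with 3 at an unadjusted p under 0.05. Among the 11 B cell markers, Cd79a averaged 0 CPM in GrnKO and 0.0274 CPM in WT libraries. Cd22, an inhibitory sialic acid receptor, was the only one with enough counts to test, and it rose to 2.93 CPM in GrnKO against 1.02 CPM in WT libraries (edgeR adjusted p = 0.038). The B cell list summed to 3.95 to 6.25 CPM in GrnKO and 3.00 to 4.46 CPM in WT libraries. The part of these cells in the class II values was not tested.

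**Figure D2:**
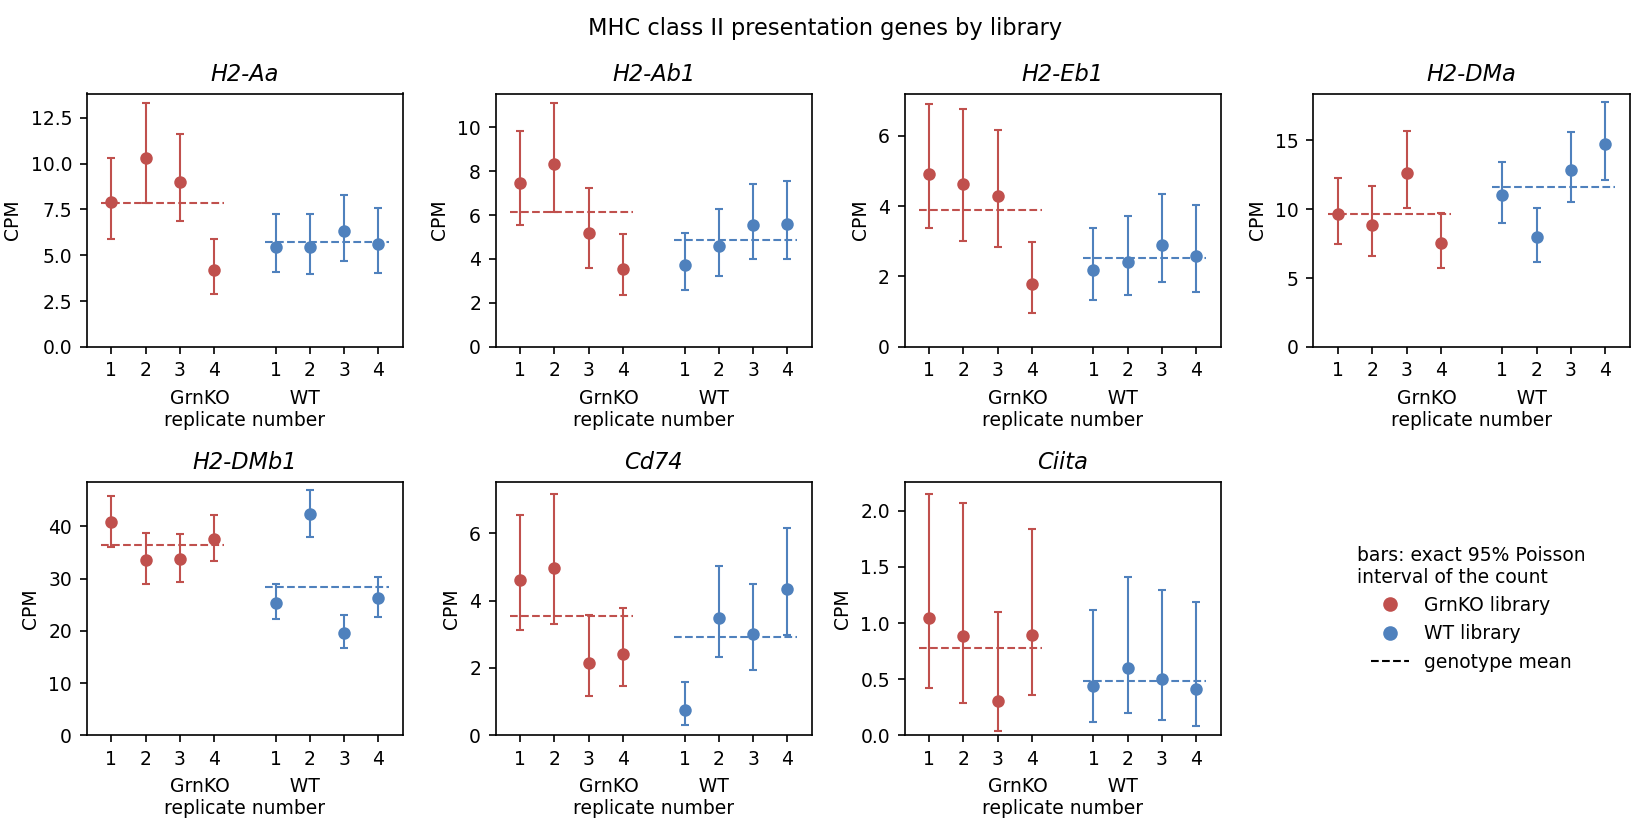
CPM of the 7 class II members in each library, GrnKO replicates 1 to 4 (red) left of WT replicates 1 to 4 (blue); bars are exact 95% Poisson intervals of the count and dashed lines the genotype means. H2-Aa and H2-Eb1 are high in GrnKO 1 to 3 and low in GrnKO 4, whereas H2-DMb1 spreads mainly among the WT libraries, where WT 2 had 42.3 CPM and WT 3 had 19.6 CPM.

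H2-Aa (ENSMUSG00000036594.16) encodes the alpha chain of I-A, the class II dimer that C57BL/6 mice display. It had 7.89, 10.3, 8.999 and 4.20 CPM in GrnKO libraries 1 to 4 and 5.47, 5.42, 6.29 and 5.58 CPM in WT libraries 1 to 4. GrnKO 1 to 3 were above every WT library and GrnKO 4 was below every one. The mean was 7.85 ± 2.62 CPM in GrnKO and 5.69 ± 0.405 CPM in WT libraries (SD, n = 4 each). The fold difference was 1.37 with a 95% interval of 0.92 to 2.03 (log2 fold change 0.45 ± 0.26 SE, edgeR adjusted p = 0.401).

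H2-Ab1 (ENSMUSG00000073421.7) encodes the beta chain that pairs with H2-Aa. GrnKO libraries 1 to 4 had 7.44, 8.34, 5.19 and 3.57 CPM, and WT libraries 1 to 4 had 3.72, 4.58, 5.54 and 5.58 CPM. Here GrnKO 1 and 2 exceeded every WT library, GrnKO 3 lay among them and GrnKO 4 was again the lowest of the 8. The mean was 6.13 ± 2.17 CPM in GrnKO and 4.86 ± 0.886 CPM in WT libraries, a fold difference of 1.26 (95% interval 0.818 to 1.93; edgeR adjusted p = 0.598).

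H2-Eb1 (ENSMUSG00000060586.12) encodes the beta chain of I-E, a dimer that C57BL/6 mice do not make because their Ea gene carries a promoter deletion. H2-Ea had 0 counts in all 8 libraries, where a count of 0 allows up to 3 counts, or 0.327 to 0.531 CPM depending on the library. H2-Eb1 itself was detected in every library, with 4.91, 4.62, 4.27 and 1.78 CPM in GrnKO libraries 1 to 4 and 2.19, 2.41, 2.90 and 2.59 CPM in WT libraries 1 to 4. The pattern was that of H2-Aa: GrnKO 1 to 3 above all WT libraries and GrnKO 4 below all of them. Its mean was 3.896 ± 1.43 CPM in GrnKO and 2.52 ± 0.298 CPM in WT libraries. The fold difference of 1.53 was the highest of the 6 tested members, and its 95% interval ran from 0.939 to 2.49 (log2 fold change 0.61 ± 0.32 SE, edgeR adjusted p = 0.353).

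The spread of these dimer genes sat in the GrnKO libraries. For H2-Aa the variance of CPM between GrnKO libraries was 6.36 times that of counting alone, against 0.234 times between WT libraries. The same ratio was 4.01 in GrnKO and 0.298 in WT libraries for H2-Eb1, and 5.37 in GrnKO and 1.38 in WT libraries for H2-Ab1. Without GrnKO 4 the log2 fold change was 0.67 for H2-Aa (edgeR adjusted p = 0.133), 0.53 for H2-Ab1 (0.372) and 0.87 for H2-Eb1 (0.118), still short of the threshold. GrnKO 4 also differed from the other GrnKO libraries outside the class II genes, in both directions. Cd40 was 7.13 CPM there, against 4.12 to 4.26 CPM in the others, and Calr, an endoplasmic reticulum chaperone, 570 CPM against 418 to 455 CPM. Ctss was 3767 CPM, against 4356 to 4682 CPM in the other GrnKO libraries, and the summed macrophage markers were 7036 CPM, against 7782 to 8743 CPM. The part of that library's composition in the class II values was not tested.

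H2-DMa and H2-DMb1 encode the chains of H2-DM, the lysosomal peptide editor, and neither had the library pattern of H2-Aa. H2-DMa (ENSMUSG00000037649.11) had 9.68, 8.88, 12.7 and 7.52 CPM in GrnKO libraries 1 to 4 and 11.1, 7.96, 12.8 and 14.7 CPM in WT libraries 1 to 4. Libraries of both genotypes were interspersed, with GrnKO 4 lowest and WT 4 highest. The mean was 9.68 ± 2.18 CPM in GrnKO and 11.6 ± 2.87 CPM in WT libraries. It was the only tested member with a negative log2 fold change, -0.26 ± 0.23 (SE; edgeR adjusted p = 0.598), a fold of 0.832 with a 95% interval of 0.59 to 1.17.

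H2-DMb1 (ENSMUSG00000079547.5) had the most counts of the members, 189 to 295 in GrnKO and 156 to 351 in WT libraries. GrnKO libraries 1 to 4 had 40.8, 33.5, 33.7 and 37.6 CPM, and WT libraries 1 to 4 had 25.4, 42.3, 19.6 and 26.3 CPM. WT 2 was above all GrnKO libraries and the other 3 WT libraries were below all of them. The mean was 36.4 ± 3.47 CPM in GrnKO and 28.4 ± 9.73 CPM in WT libraries, a fold of 1.28 with a 95% interval of 0.937 to 1.75 (log2 fold change 0.36 ± 0.21 SE, edgeR adjusted p = 0.402). Between WT libraries its variance was 27.3 times that of counting, the highest ratio of any member, against 2.12 times between GrnKO libraries. Without WT 2 the log2 fold change was 0.61 and the edgeR adjusted p was 0.0534. H2-DMb1 has a near-identical neighbour, H2-DMb2, and how the authors' counting split reads between them was not tested, so its level is uncertain to that extent. Its estimated count was not whole in 7 of the 8 libraries, and those of the other members in 2 (H2-Eb1 and Cd74) to 6 (H2-Ab1).

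Cd74 (ENSMUSG00000024610.16), the invariant chain, had 4.62, 4.97, 2.14 and 2.42 CPM in GrnKO libraries 1 to 4 and 0.766, 3.50, 3.02 and 4.36 CPM in WT libraries 1 to 4. GrnKO 1 and 2 were highest, GrnKO 3 and 4 lay below 3 of the 4 WT libraries, and WT 1 was lowest with 7 counts. The mean was 3.54 ± 1.46 CPM in GrnKO and 2.91 ± 1.53 CPM in WT libraries, a fold of 1.22 with a 95% interval of 0.606 to 2.44 (log2 fold change 0.28, edgeR adjusted p = 0.813). Its direction rested on WT 1: without that library the log2 fold change was -0.05.

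Ciita (ENSMUSG00000022504.11), the master coactivator, was at the edge of detection and did not pass the count filter. GrnKO libraries 1 to 4 had 7, 5, 2 and 7 counts and WT libraries 1 to 4 had 4, 5, 4 and 3, or 0.305 to 1.04 CPM in GrnKO and 0.409 to 0.603 CPM in WT libraries. The groups overlapped. The summed counts were 21 in GrnKO and 16 in WT libraries, a depth-scaled ratio of 1.605 with an exact 95% interval of 0.798 to 3.29 that covers counting error only. With no filter on low counts its log2 fold change was 0.65 and its edgeR adjusted p 0.6, so no genotype difference in Ciita was detected at this depth.

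The other class II genes were all below the count filter. H2-Oa and H2-Ob encode H2-O, the partner that restrains H2-DM and is known mainly from B cells. H2-Ob had 3, 2, 8 and 5 counts in GrnKO libraries 1 to 4 and 9, 12, 21 and 12 counts in WT libraries 1 to 4, so that only GrnKO 3 overlapped the WT range once scaled, at 1.22 CPM beside 0.985 CPM in WT 1. The summed counts were 18 in GrnKO and 54 in WT libraries, a depth-scaled ratio of 0.408 (exact 95% interval 0.225 to 0.706, counting error only). Across replicates and with no filter, the log2 fold change was -1.30 and the edgeR adjusted p 0.245. H2-Oa had 7 counts in GrnKO and 4 in WT libraries, H2-DMb2 9 and 23, and H2-Eb2 0 and 1.

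How the members moved together across the 8 libraries was set out for the 15 pairs of tested members. GrnKO 4 was the lowest library for 4 of the 6 (H2-Aa, H2-Ab1, H2-Eb1 and H2-DMa), and GrnKO 2 was the highest for 3. The chains H2-Aa and H2-Eb1 varied together, with a Pearson r of 0.95 on log2 CPM (n = 8, exact permutation p = 0.000942, Benjamini-Hochberg adjusted over the 15 pairs 0.0141) and a Spearman rho of 0.90 (exact permutation p = 0.00456, adjusted 0.0543). Without GrnKO 2 and 3, the libraries farthest from the median of H2-Aa, r was 0.97, and with genotype means subtracted it was 0.93. Part of this range lay between sets of libraries: GrnKO 1 to 3 had 7.89 to 10.3 CPM of H2-Aa and 4.27 to 4.91 CPM of H2-Eb1, and the other 5 libraries had 4.20 to 6.29 CPM and 1.78 to 2.90 CPM. Neither set holds 6 libraries, so no coefficient is given within them.

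H2-Ab1 followed H2-Eb1 with an r of 0.88 (n = 8, exact permutation p = 0.00451, adjusted 0.0339) and a rho of 0.88 (exact permutation p = 0.00724, adjusted 0.0543); r was 0.78 without GrnKO 2 and 4, the libraries farthest from the median of H2-Ab1, and 0.87 with genotype means subtracted. These 2 pairs passed the adjustment by Pearson's r and not by Spearman's rho. H2-Aa and H2-Ab1, the partners in I-A, had an r of 0.82 (exact permutation p = 0.0153, adjusted 0.0764) and a rho of 0.81 (exact permutation p = 0.0218, adjusted 0.0817), with an r of 0.89 without GrnKO 2 and 3. H2-Ab1 and Cd74 had an r of 0.75 (exact permutation p = 0.0249, adjusted 0.0934) and a rho of 0.83 (exact permutation p = 0.0154, adjusted 0.0769), with an r of 0.81 without GrnKO 2 and 4 and of 0.73 with genotype means subtracted.

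The chains of H2-DM, H2-DMa and H2-DMb1, had an r of -0.72 (n = 8, exact permutation p = 0.0468, adjusted over the 15 pairs 0.14) and a rho of -0.69 (exact permutation p = 0.0694, adjusted 0.208). Leaving out GrnKO 4 and WT 4 gave -0.73, and subtracting genotype means gave -0.66. This relation did not pass the adjustment. The other 10 pairs had adjusted p values of 0.566 to 0.843 for r, from the same exact permutation test. The coefficients rest on 8 libraries and on genes with few counts, and the libraries' depth and composition are shared by all members.

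**Figure D3:**
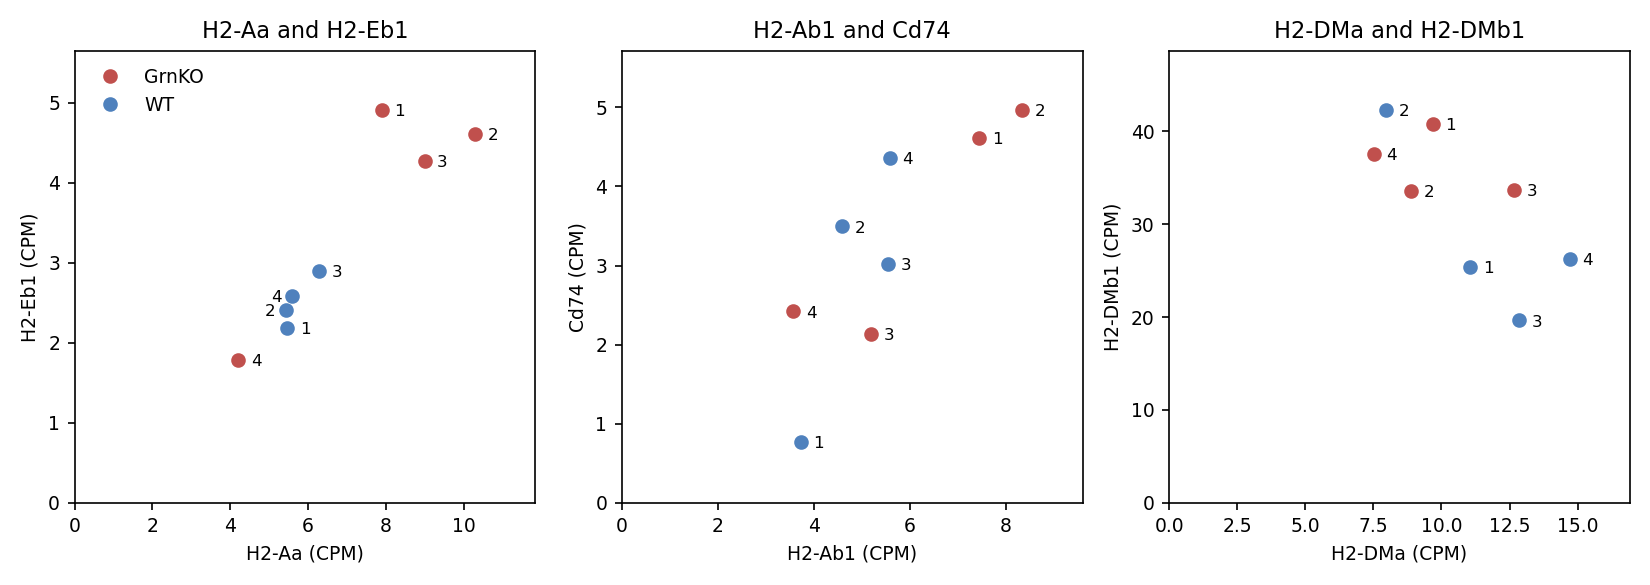
CPM of 3 pairs of members in the 8 libraries, numbered by replicate, GrnKO red and WT blue. H2-Aa and H2-Eb1 are high together in GrnKO 1 to 3 (r = 0.95); r was 0.75 for H2-Ab1 with Cd74 and -0.72 for H2-DMa with H2-DMb1.

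The mean log2 CPM of the 6 tested members gave a profile whose distance from the WT mean was 0.52, 0.55, 0.28 and -0.24 in GrnKO libraries 1 to 4 and -0.36, 0.06, 0.08 and 0.21 in WT libraries 1 to 4. GrnKO 1 to 3 were above all WT libraries, and GrnKO 4 was below 3 of them. Among 9826 other genes averaging at least 5 CPM, those most like this profile over the 8 libraries by Pearson r were Etfbkmt (0.982), Terf2ip (0.961), Cr1l (0.953), Dmxl2 (0.951) and Arrdc4 (0.95). After subtracting genotype means they were Lmbrd1 (0.990), Etfbkmt (0.984), Zfp36 (0.982), Gm20703 (0.969) and Terf2ip (0.968). None of these 8 genes was called between genotypes. They are the top of a long search over 8 points and are given as a description.

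The genes listed as regulators of Ciita and class II promoters were, with a single exception, not called. The list also holds genes of interferon gamma signalling: Ifng, Ifngr1, Ifngr2, Jak1, Jak2 and Socs1. Of 24 genes listed, 23 could be tested, 1 rose and 0 fell, a share close to the 4.25% called among all tested genes. At an unadjusted edgeR p under 0.05 there were 6. Besides Bhlhe40 these were Ifngr1, Irf1, Creb1, Irf4 and Rfxap, all with negative log2 fold changes. The median log2 fold change was -0.18 beside -0.03 over all tested genes. The RFX subunits that bind the X box were not called, and their groups overlapped: Rfx5 averaged 38.2 ± 5.70 CPM in GrnKO and 36.5 ± 3.15 CPM in WT libraries (edgeR adjusted p = 0.869), Rfxap 12.8 and 16.6 CPM (0.277), and Rfxank 3.01 and 3.89 CPM (0.491). The interferon gamma arm was represented by Irf1 and the receptor. Irf1, which acts on the inducible Ciita promoter, averaged 71.5 ± 13.2 CPM in GrnKO and 92.7 ± 12.6 CPM in WT libraries (edgeR adjusted p = 0.22). Ifngr1, the ligand-binding receptor chain, averaged 154 ± 15.6 CPM in GrnKO and 229 ± 75.7 CPM in WT libraries (edgeR adjusted p = 0.175); without WT 1, its log2 fold change was -0.75 and the adjusted p 0.00811, which made 2 calls in the list. Ifng itself had 0 counts in all 8 libraries.

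Bhlhe40, a transcriptional repressor that restrains Il10 in mouse myeloid and T cells, was the single gene of this list called. Whether it acts on class II promoters was not tested. It had 36.2, 40.3, 38.3 and 37.2 CPM in GrnKO libraries 1 to 4 and 21.0, 15.7, 14.3 and 11.03 CPM in WT libraries 1 to 4. The groups were far apart, with a log2 fold change of 1.29 ± 0.18 (SE; edgeR adjusted p = 0.00173).

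Some of the lysosomal enzymes and inhibitors that prepare class II molecules and antigen were called. Of the 11 genes listed 4 rose and 0 fell, and the other 7 did not pass the test. Among all tested genes 2.79% were called higher and 1.46% lower. Over all 11 the median log2 fold change was 0.34, and the list summed to 16990 to 19560 CPM in GrnKO and 11010 to 14420 CPM in WT libraries. Ctss, the cathepsin that trims the invariant chain in antigen-presenting cells, had 4682, 4469, 4356 and 3767 CPM in GrnKO libraries 1 to 4 and 2652, 2579, 2554 and 2843 CPM in WT libraries 1 to 4. Every GrnKO library exceeded every WT library, and the log2 fold change was 0.70 ± 0.095 (SE; edgeR adjusted p = 0.00149). Ctsl, which trims it in thymic epithelium, averaged 2249 ± 178 CPM in GrnKO and 1477 ± 202 CPM in WT libraries (edgeR adjusted p = 0.0109; 0.0531 without GrnKO 2). Ctsd, the aspartic protease, averaged 4885 ± 330 CPM in GrnKO and 2785 ± 460 CPM in WT libraries (edgeR adjusted p = 0.00287), and Cstb, an inhibitor of cysteine cathepsins, 817 ± 63.2 and 509 ± 43.5 CPM (0.00255). Lgmn, the asparagine endopeptidase, averaged 516 ± 62.2 CPM in GrnKO and 503 ± 120 CPM in WT libraries (edgeR adjusted p = 0.939). Ifi30, the interferon-inducible thiol reductase that unfolds antigen, averaged 55.0 ± 4.35 CPM in GrnKO and 67.9 ± 9.45 CPM in WT libraries (0.24).

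Of 14 genes of class II trafficking and turnover 3 rose and 0 fell, beside 2.79% called higher and 1.46% called lower among all tested genes. The median log2 fold change was 0.23. Tap2, the class I peptide transporter, stood in this list as well as in the class I list. Mif, Cd44 and Cxcr4, a ligand and co-receptors of surface CD74, were listed too, so the counts and median are not of trafficking alone. The genes that rose were a pair of tetraspanins of endosomes and the cell surface and a lysosome positioning GTPase. Cd63 averaged 3655 ± 346 CPM in GrnKO and 2454 ± 422 CPM in WT libraries (edgeR adjusted p = 0.0288), Cd53 420 ± 43.4 and 278 ± 16.2 CPM (0.00738), and Arl8b 189 ± 17.1 and 124 ± 15.4 CPM (0.0135). The call of Cd63 was lost without GrnKO 1, 2 or 3 or WT 3 (edgeR adjusted p 0.0884 to 0.109) and with a replicate block (0.128), and that of Arl8b without GrnKO 3 or WT 3 (0.0623 and 0.0591) and with the block (0.0865). The count for the list was 1 without GrnKO 3 or without WT 3, and 5 without WT 1. Marchf1, the ubiquitin ligase that sends class II from the surface to lysosomes, had 39.5, 47.4, 48.5 and 23.9 CPM in GrnKO libraries 1 to 4 and 16.3, 25.7, 57.5 and 65.8 CPM in WT libraries 1 to 4. WT libraries spanned the whole GrnKO range, and the log2 fold change was -0.05 (edgeR adjusted p = 0.963). Its relative Marchf8 averaged 226 ± 8.81 CPM in GrnKO and 177 ± 18.9 CPM in WT libraries (0.0868), and Cd83, which opposes Marchf1, 38.4 ± 10.8 and 51.3 ± 22.8 CPM (0.557).

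The T cell costimulation list, for signals shown beside the peptide, had 1 call in each direction. It mixes costimulatory ligands with checkpoint genes (Cd274, Pdcd1lg2, Vsir, Havcr2 and Lgals9), the adhesion molecule Icam1 and the receptor Cd40. Its counts and median therefore do not describe costimulatory ligands alone. Of 13 genes listed 11 could be tested, where 2.79% of all tested genes were called higher and 1.46% lower. A negative log2 fold change was found for 9 of the 11, beside 6603 of all 12186 tested genes, with a median of -0.50. Cd274, which encodes the inhibitory ligand PD-L1, had 42.6, 50.2, 49.9 and 27.6 CPM in GrnKO libraries 1 to 4 and 14.6, 23.6, 21.1 and 15.1 CPM in WT libraries 1 to 4. All GrnKO libraries were above all WT libraries, with a log2 fold change of 1.19 ± 0.22 (SE; edgeR adjusted p = 0.0104). Icosl, the ligand of the T cell receptor ICOS, fell to 4.02, 1.95, 1.98 and 3.44 CPM in GrnKO libraries 1 to 4, against 11.8, 7.72, 6.42 and 6.81 CPM in WT libraries 1 to 4 (log2 fold change -1.51 ± 0.30 SE, edgeR adjusted p = 0.016; 0.0633 without GrnKO 2 and 0.0627 without GrnKO 3, which leave 1 call in the list). Without WT 1 the list held 4 calls. Cd80 averaged 4.88 ± 1.54 CPM in GrnKO and 3.19 ± 1.40 CPM in WT libraries (edgeR adjusted p = 0.37). Cd86 averaged 7.46 ± 0.605 CPM in GrnKO and 12.4 ± 4.15 CPM in WT libraries (edgeR adjusted p = 0.115; 0.0253 without WT 1). Cd40, the receptor for T cell help, averaged 4.92 ± 1.48 CPM in GrnKO and 8.45 ± 2.21 CPM in WT libraries (0.141).

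MHC class I, the parallel pathway for CD8+ T cells, had 0 of 24 genes called by edgeR with all libraries, beside 4.25% of all tested genes. Of the 24, 7 had an unadjusted edgeR p under 0.05, and the median log2 fold change was -0.09. The count of calls was 1 without GrnKO 1, 3 without WT 4 and 2 with DESeq2. B2m, the light chain, averaged 2729 ± 48.8 CPM in GrnKO and 2748 ± 59.0 CPM in WT libraries (edgeR adjusted p = 0.964). Its spread was narrow beside those of the class II genes, which had far fewer counts and so more counting error. H2-K1 averaged 1546 ± 155 and 1499 ± 275 CPM (0.912), and H2-D1 1700 ± 136 and 1484 ± 178 CPM (0.384), GrnKO before WT libraries. Nlrc5, the class I counterpart of Ciita, averaged 9.05 ± 3.01 CPM in GrnKO and 11.2 ± 4.22 CPM in WT libraries (0.679).

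Interferon gamma response genes leaned lower in GrnKO libraries. Of 22 listed 16 could be tested, and 15 of those had a negative log2 fold change, beside 6603 of all 12186 tested genes. Their median was -0.76, beside -0.03 over all tested genes. Of the 16, 2 fell and 1 rose, where 1.46% of all tested genes were called lower and 2.79% higher. The list summed to 383, 295, 310 and 336 CPM in GrnKO libraries 1 to 4 and 566, 428, 402 and 424 CPM in WT libraries 1 to 4. WT 1 was highest and the groups did not overlap. Iigp1, an immunity-related GTPase, fell to 3.57, 3.37, 3.66 and 4.59 CPM in GrnKO libraries 1 to 4, against 29.7, 15.4, 9.31 and 7.63 CPM in WT libraries 1 to 4 (log2 fold change -2.02 ± 0.40 SE, edgeR adjusted p = 0.0151). Irgm2, of the same family, averaged 52.7 ± 9.74 CPM in GrnKO and 89.7 ± 17.0 CPM in WT libraries (edgeR adjusted p = 0.0252). Fcgr4, an activating Fc receptor, rose to 17.3 ± 2.21 CPM in GrnKO against 10.1 ± 1.95 CPM in WT libraries (edgeR adjusted p = 0.0285).

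These interferon gamma calls were close to the threshold. Iigp1 lost its call without GrnKO 1, 2 or 3 (edgeR adjusted p 0.0572 to 0.0648), Irgm2 without GrnKO 2, 3 or 4 or WT 2 or 3 (0.0508 to 0.0907), and Fcgr4 without GrnKO 1, 3 or 4 or WT 2 or 3 (0.0591 to 0.11). The list count was 0 without GrnKO 3, 1 without GrnKO 1, 2 or 4 or WT 3, and 5 without WT 4. With a replicate block it was 0. WT 1, highest for this list, was the library with the fewest Cd74 counts and the lowest class II share. Monocyte and neutrophil markers were lower in GrnKO libraries along with the list, and their part in it was not tested.

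**Figure D4:**
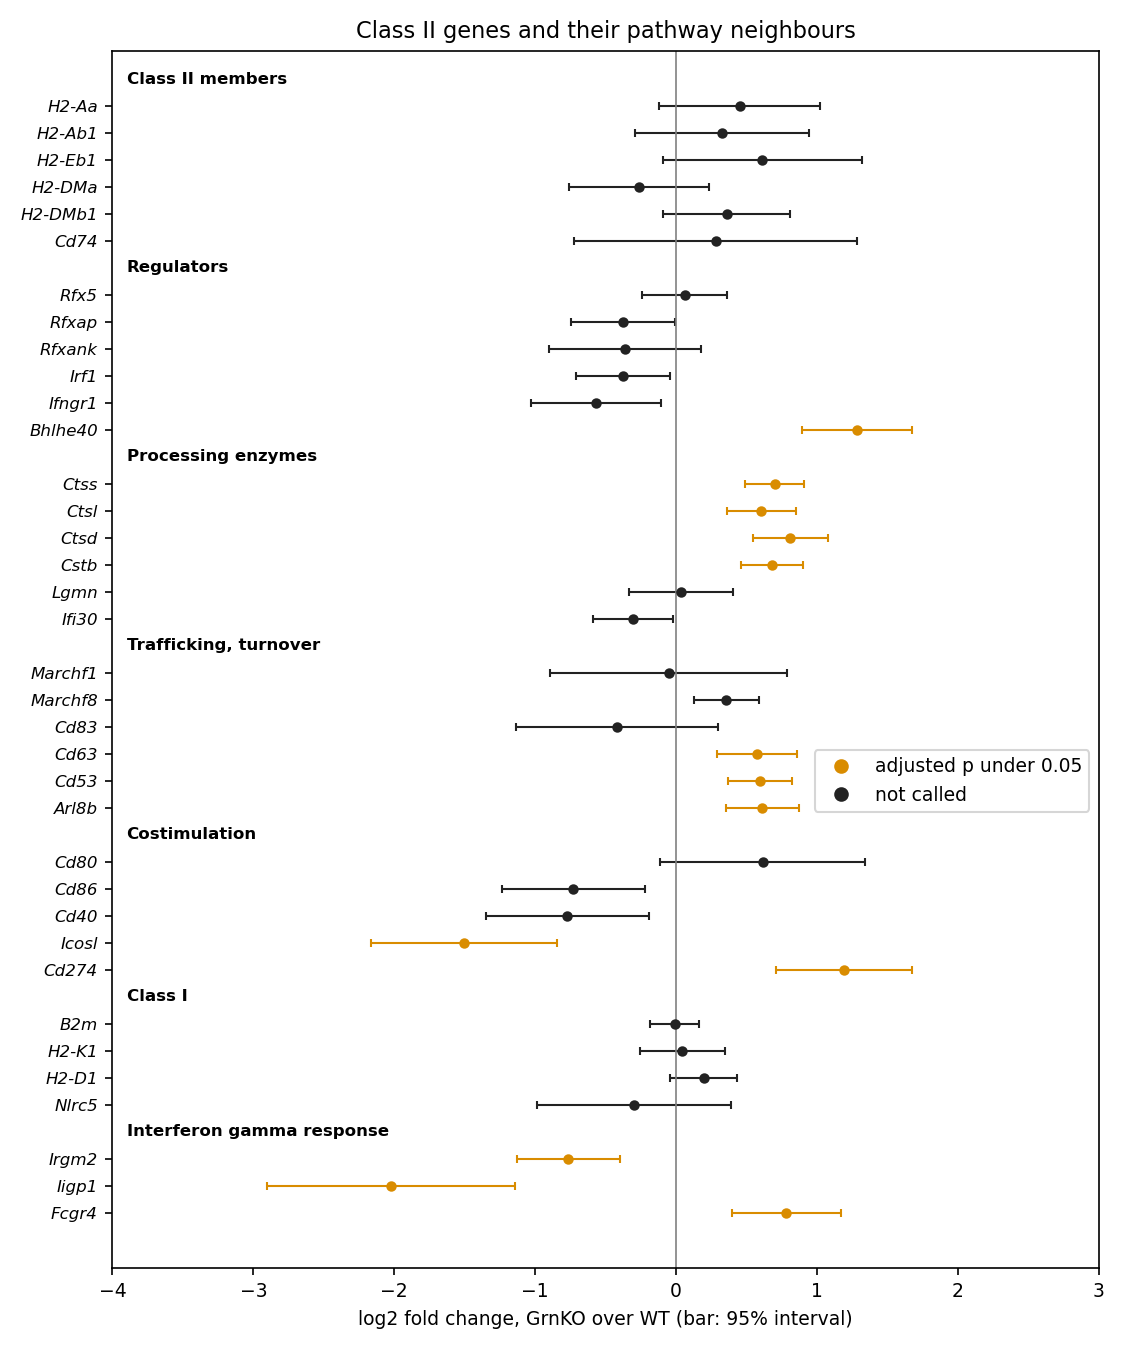
Log2 fold change of GrnKO over WT with its 95% interval for the 6 tested class II members and the named genes of 6 pathway lists; orange marks an edgeR adjusted p under 0.05. Every tested class II member's interval spans 0, with fold changes from -0.26 for H2-DMa to 0.61 for H2-Eb1, whereas the cathepsins Ctss, Ctsl and Ctsd and the cathepsin inhibitor Cstb lie between 0.61 and 0.81.

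The precision behind these comparisons depended on the counts and on the spread between libraries described above. By mean CPM, a measure here of counting depth, the tested members ranked from the 12.6th percentile of tested genes for H2-Eb1 to the 58.8th for H2-DMb1. Of 5623 genes with a mean of 3.21 to 32.4 CPM, the range of the tested members, 183 were called (3.25%), with a median SE of 0.209 log2 units; of 5026 genes above it 298 were called (5.93%), with a median SE of 0.135. The members' own SEs were 0.21 to 0.46. The widest interval was that of Cd74, which allowed a fold from 0.606 to 2.44, and the narrowest that of H2-DMb1. The number of called genes over the whole table was itself unsteady: it was 518 with all libraries, 267 to 319 without one of the GrnKO libraries, 287 without WT 3 and 942 without WT 1, whereas the count of class II members called was 0 each time.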

How the data were processed

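Polyadenylated RNA was measured by 3′ mRNA sequencing with unique molecular identifiers in 8 libraries, per the labels' protocols. The authors deposited estimated counts per gene; Salmon (version not given in the sources used here) and GRCm39 are named in the submitters' processing notes. Of the non-zero estimated counts 36.4% were not whole (tolerance 1e-06). The authors also deposited log2 CPM with a prior count, made by a tool not given in the sources used here, which served as an alternative. Groups came from sample titles.

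Estimated counts were rounded. Totals were 5828178 to 8768772. Of 56980 genes, 12186 passed edgeR's filterByExpr (minimum count 10) and were tested with edgeR 4.0.16 in R 4.3.3 (TMM, robust quasi-likelihood F test, Benjamini-Hochberg adjusted p under 0.05 called over all tested genes). CPM used TMM-scaled totals. SEs and 95% intervals of fold changes came from the quasi-likelihood fit; Poisson intervals and floors (3 counts) cover counting error only. Same-group libraries differed by a chi-square per degree of freedom of 2.91 to 10.24 in GrnKO pairs and 9.93 to 45.18 in WT pairs. None was therefore a repeat sequencing of another library. Whether any came from the same culture was not tested. The procedure was tested on simulated data. Alternatives used DESeq2 1.42.0, limma 3.58.1, other filters and scalings, a replicate block and each library left out. The members, gene lists, tests and motifs were chosen with earlier results of these data known. Genes were named by rule: the members and Grn, up to 4 called genes by smallest p and up to 4 others by role from each list, the genes most like the members' profile, and markers as values; some genes the rule selects are not reported here. Chromosomes and promoter sequences are from RefSeq (GRCm38.p6), not the authors' build.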

Additional observations from a re-analysis of the deposited data

Results flagged for a closer look

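Among 82 groups of 4 libraries (41 named genes in each genotype), 4 held a library whose gap to the nearest of the others exceeded Dixon's 95% critical value, where chance gives about 1 in 20; no class II member was among them. Ctsd was 4396 CPM in GrnKO 4, against 4996 to 5112 CPM in the other GrnKO libraries. Cd40 was 7.13 CPM in GrnKO 4, against 4.12 to 4.26 CPM in the others. B2m was 2801 CPM in GrnKO 3, against 2694 to 2712 CPM. In WT libraries, Arl8b was 146.7 CPM in WT 2, against 113.9 to 118.6 CPM in the others.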

How the results depend on the processing

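The number of class II members called was 0 under all 20 alternatives. The alternative of an adjusted p under 0.01 reused the main fit, so its member values and count could not differ. Of 118 fold changes of members under the alternatives, that setting included, 117 kept their direction and side of the threshold. Cd74 was -0.05 without WT 1 and up to 0.54 with another library left out. The log2 fold changes ranged from 0.30 to 0.67 for H2-Aa, 0.15 to 0.53 for H2-Ab1, 0.42 to 0.87 for H2-Eb1, -0.42 to -0.13 for H2-DMa and 0.22 to 0.61 for H2-DMb1. H2-Eb1 and Cd74 had no value when a mean of 5 CPM was required. The 518 calls among 12186 tested genes became 918 with no filter on low counts, where 36571 genes were tested. They became 865 with DESeq2, 209 at an adjusted p under 0.01 and 220 with a replicate block. With each library left out the number was 267 to 942. Same-numbered libraries did not deviate together (r from -0.39 to 0.15), so the numbers were not taken as pairs. The median log2 fold change of all genes was -0.10 with no scaling factors, against -0.03. Of 618 values of 31 other named genes, 563 were unchanged in call and direction, 36 lost (the threshold of 0.01 included) and 5 gained a call, and 14 changed sign. The sign changes were all of uncalled genes: Rfx5 (-0.01), Lgmn (-0.03) and H2-K1 (-0.03) with no scaling factors; Lgmn (leave-one-out range -0.11 to 0.16) and H2-K1 (-0.07 to 0.14); and Marchf1, at 0.11 with the replicate block, 0.12 with limma-voom, 0.11 on log2(CPM + 1) and log2(CPM + 0.25), 0.06 on the deposited log2 CPM and -0.32 to 0.26 on leaving out a library. The causes were not tested. Calls per list were 0 to 7 for interferon gamma response, 1 to 6 for trafficking, 0 to 4 for costimulation, 0 to 5 for class I and 3 to 5 for processing enzymes.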
